A study of Homo sapiens with 9 samples.

Results

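The zinc finger genes of human chromosome 19 were followed through YK-4-279 treatment of KHM-5M cells. Members were every protein-coding gene of the deposited table that lies on chromosome 19 and is named ZNF followed by a digit, which gave 249 of 58735 genes (19951 of them protein-coding). The name was borne out by the table, where 239 members carried a C2H2 zinc finger family entry. KHM-5M is a human thyroid cancer cell line with BRAF and TERT promoter mutations, and YK-4-279 is a small molecule developed to block the activity of ETS family transcription factors. RNA-seq was made from cells kept for 24 h with DMSO, the solvent control, or with YK-4-279 at 0.3 μM or 1 μM, with 3 samples per group and 9 in all. All groups are the same single cell line and differ in the agent and its dose. The labels do not say whether samples of a group came from separate cultures, so p-values measure only the spread between these samples.

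Most zinc finger genes of this chromosome arose by repeated local duplication and sit in clusters of near relatives. A typical member encodes an array of C2H2 fingers, each of which reads a few bases of DNA, behind an N-terminal KRAB box. The KRAB box recruits TRIM28 (KAP1), a scaffold that brings the histone H3K9 methyltransferase SETDB1, HP1 proteins and other silencing enzymes to the bound site. Many of these repressors are known for binding transposable elements and keeping them silent. Translation of the longest coding sequence in the reference annotation (248 members had one) gave a median of 12 fingers per protein, with a range from 0 to 36. A KRAB box was found in 212 members and not in 36.

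Counts summed to 16903251 to 18238884 per sample, and the upper limit behind a gene with no read (3 counts, counting error only) was 0.165 to 0.178 CPM, the count scaled to library size, per library. Thyroid follicular markers were largely absent: 1 of 9, the transcription factor PAX8, had a mean FPKM (reads scaled by gene length and library size) of at least 1 in DMSO. Among epithelial markers 4 of 5 reached that level, with CDH1 near 0, and among mesenchymal or fibroblast markers 4 of 7. Summed FPKM in DMSO was 325 to 328 over the former and 498 to 530 over the latter. None of the 3 endothelial markers reached it. Of the 5 immune markers none reached it, and their summed FPKM was 0.254 to 0.69 in DMSO, 0.242 to 0.614 at 0.3 μM and 0.993 to 1.09 at 1 μM. The higher sum came from CD14, at a mean of 0.479 FPKM in DMSO and 1.02 FPKM at 1 μM, and the other 4 stayed below 0.03 FPKM. The pan-leukocyte marker PTPRC had no read in 8 of the 9 samples, and the part of immune transcripts in any result was not tested. Replicates differed by more than sampling noise in every group, which does not show whether they came from separate cultures. Each was counted as its own sample.

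The chromosome 19 ZNF genes were transcribed at low levels in KHM-5M cells. In total, 8 members had no read in any sample and 218 had at least 1 read in all 9 samples. They took 0.176% to 0.191% of all counts in a library. In DMSO, 102 of 249 members reached a mean FPKM of 1 and 4 reached 10. The median level per length over the members that could be tested at 1 μM was 0.993 FPKM, against 5.48 FPKM for protein-coding genes tested, and their median count level was 5.40 CPM against 20.2 CPM for all genes tested. Fewer reads thus stood behind a typical member than behind a typical gene.

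The 5 members with the highest level per length were ZNF146, ZNF581, ZNF787, ZNF428 and ZNF579. None of these 5 had a KRAB box in its longest coding sequence. ZNF146, a protein made almost wholly of fingers, stood at 24.6 ± 3.67 FPKM (SD, n = 3) in DMSO and 25.5 ± 1.53 FPKM at 1 μM. ZNF581 stood at 22.0 ± 2.88 FPKM in DMSO, ZNF787 at 14.8 ± 1.94 FPKM, ZNF428 at 12.5 ± 1.32 FPKM and ZNF579 at 9.89 ± 2.08 FPKM. The log2 fold changes of these 5 genes at 1 μM against DMSO lay between -0.08 and 0.13, and none passed the test (edgeR's quasi-likelihood test, Benjamini-Hochberg adjusted p from 0.343 for ZNF787 to 0.987 for ZNF428).

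The first comparison asked how 1 μM YK-4-279 changed these genes. The group kept its median level. The median log2 fold change over the 204 members that passed the filter on low counts was -0.02, against -0.01 over all 15617 genes tested, and 111 of the 204 lay below 0. Within the group, 18 members fell and 2 rose at an adjusted p under 0.05 in edgeR's quasi-likelihood test adjusted over all genes. That is 8.82% lower and 0.98% higher, whereas the background over all genes tested was 9.95% lower and 7.67% higher. The share that fell lay near the background and the share that rose below it, and no test of that difference was made. With the 1.5-fold cutoff of the study added, 10 members (4.90%) were lower and 0 higher. The background was 2.35% lower and 1.56% higher among the protein-coding genes tested. Over all 15617 genes tested, 644 were lower and 214 higher past this cutoff. In both directions together this is 5.49% of all genes, 3.91% of protein-coding genes and 4.90% of members. At an unadjusted p under 0.05 there were 41 members (20.1%), 9 of them higher, against 31.9% of all genes.

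Calls were also counted by level. Below 2 CPM, 5.41% of 37 members were called lower and 0 higher, against 7.53% and 1.67% of all genes. Members between 2 and 8 CPM were called lower in 9.09% of cases and all genes of that level in 10.3%, while calls upward made up 1.01% and 3.41%. From 8 CPM on, 10.3% of members and 10.6% of all genes were called lower, and 1.47% and 10.5% were called higher. That last range has no upper bound, so its genes are not matched in level to its 68 members, and no test of these differences was made.

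The plot of fold change distributions shows that the group centred where all genes did. The spread was not the same in each comparison. At 1 μM the quartiles were -0.22 and 0.13 for members, against -0.20 and 0.14 for all genes. At 0.3 μM members spread more widely, with quartiles of -0.13 and 0.12 against -0.09 and 0.08.

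**Figure D1:**
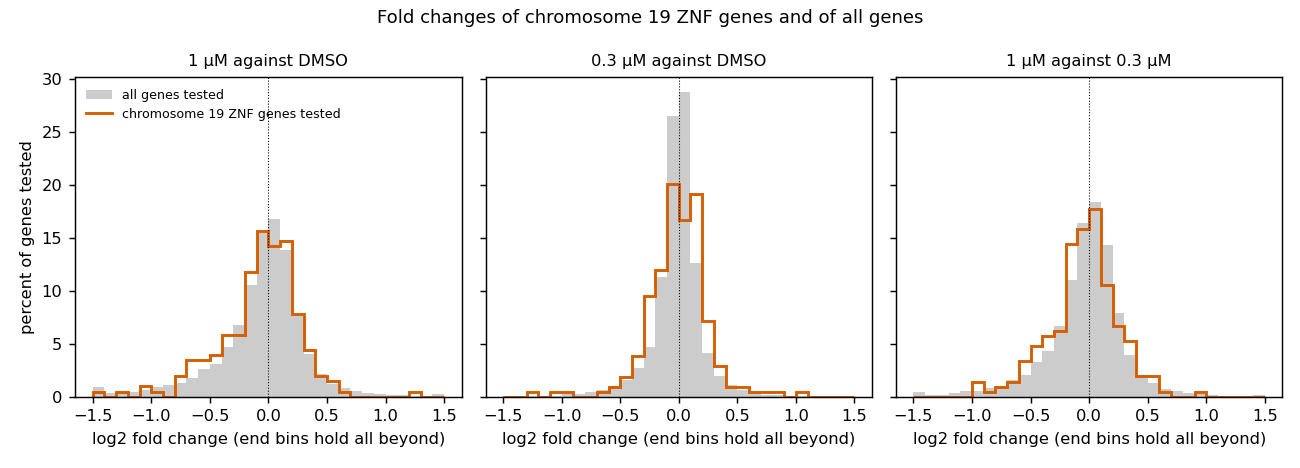
Percent of genes tested by log2 fold change in bins of 0.1, for each of the 3 comparisons. Grey areas are all genes tested and the orange line the chromosome 19 ZNF genes. Both distributions centre near 0 (medians of members -0.02, -0.00 and -0.03).

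Per sample, the group was level as well. Relative to the mean of the DMSO samples, the median log2 level over the members was -0.03, 0.05 and -0.01 in the DMSO samples, -0.01, 0.02 and -0.01 at 0.3 μM and -0.00, -0.03 and -0.02 at 1 μM. The 3 groups overlapped, and the pooled SD within groups was 0.03. All 3 samples at 1 μM lay on one side of all 3 DMSO samples for 34 of 204 members downward and 18 upward, where the background over all genes tested was 17.7% downward and 18.9% upward.

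The largest fall belonged to ZNF439 (ENSG00000171291), a KRAB gene with 11 fingers that lies outside the large cluster described further on. Its counts were 41, 28 and 36 in DMSO, 18, 21 and 12 at 0.3 μM and 14, 12 and 9 at 1 μM. Every treated sample was below every DMSO sample at both doses. The log2 fold change at 1 μM was -1.60 ± 0.33 (SE, adjusted p = 0.00438), and the call was kept in each of the 14 alternative settings tried. At 0.3 μM it was -1.07 ± 0.32, which did not pass the adjustment over all genes (adjusted p = 0.995).

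ZNF91 (ENSG00000167232), a KRAB repressor known for silencing SVA retrotransposons, carries 32 fingers. It gave 198, 282 and 197 counts in DMSO, 179, 225 and 195 at 0.3 μM and 133, 138 and 149 at 1 μM. The 1 μM samples all lay below the DMSO samples, while the 0.3 μM samples overlapped with them. Its level fell from 1.24 ± 0.225 to 0.77 ± 0.0758 FPKM, a log2 fold change of -0.70 ± 0.14 (adjusted p = 0.00444).

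ZNF675 (ENSG00000197372), a neighbour of ZNF91 with 12 fingers, had 151, 209 and 171 counts in DMSO and 129, 105 and 95 at 1 μM, with 143, 174 and 148 at 0.3 μM. Its log2 fold change at 1 μM was -0.71 ± 0.15 (adjusted p = 0.00455). For ZNF726 (ENSG00000213967), from the same cluster, counts were 63, 63 and 57 in DMSO, 48, 46 and 57 at 0.3 μM and 19, 23 and 36 at 1 μM. This was a log2 fold change of -1.24 ± 0.27 at 1 μM (adjusted p = 0.00613), with no overlap between the 1 μM and DMSO samples. ZNF730 (46, 52 and 39 counts in DMSO against 33, 18 and 15 at 1 μM) changed by -1.07 ± 0.30 on the log2 scale. ZNF493 (45, 63 and 42 counts in DMSO against 25, 33 and 17 at 1 μM) changed by -1.01 ± 0.28 with 18 fingers in its protein. Both passed the test (adjusted p = 0.0225 and 0.0238), and both lost the call when 1 of 3 samples was left out (ZNF730 without DMSO sample 1 or 1 μM sample 2 or 3, ZNF493 without DMSO sample 2 or 1 μM sample 1 or 3).

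ZNF546, a 22-finger KRAB gene in a small cluster of its own, had 101, 115 and 119 counts in DMSO, 119, 125 and 119 at 0.3 μM and 79, 54 and 73 at 1 μM (log2 fold change -0.72 ± 0.18, adjusted p = 0.0115 at 1 μM). ZNF506 (-0.66 ± 0.20), ZNF784 (-0.62 ± 0.20) and ZNF85 (-0.60 ± 0.19) completed the 10 largest falls, with adjusted p between 0.037 and 0.0448. ZNF85 sat just inside the fold cutoff, and ZNF230 (-0.59 ± 0.16, adjusted p = 0.0224) just outside it. ZNF506, ZNF784, ZNF85 and ZNF230 each lost the call in 5 to 9 of the 14 alternative settings, and ZNF546 lost it without DMSO sample 3 or 1 μM sample 2.

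The 7 other members that fell changed by less than 1.5-fold. They were ZNF83 (-0.53), ZNF714 (-0.52), ZNF43 (-0.49), ZNF780B (-0.48), ZNF331 (-0.47), ZNF530 (-0.42) and ZNF226 (-0.37). ZNF43, ZNF780B, ZNF530 and ZNF226 lost the call in 7 to 9 of the 14 settings. ZNF83, ZNF714 and ZNF331 were the most abundant of the 7 and had the smallest standard errors. ZNF83 had 543, 580 and 508 counts in DMSO and 446, 344 and 356 at 1 μM (SE 0.09, adjusted p = 0.00133). ZNF331, a gene first known from its rearrangement in benign thyroid tumours, had 395, 423 and 375 counts in DMSO, 410, 403 and 337 at 0.3 μM and 326, 278 and 268 at 1 μM (SE 0.09, adjusted p = 0.00271). ZNF83, ZNF714, ZNF331, ZNF91, ZNF675, ZNF726 and ZNF439 were the 7 of 20 calls that passed in each of the 14 alternative settings.

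The 2 rises were ZNF468 and ZNF71. ZNF468 (ENSG00000204604), with a KRAB box and 10 fingers, had 100, 124 and 96 counts in DMSO, 99, 130 and 87 at 0.3 μM and 169, 145 and 164 at 1 μM, a log2 fold change of 0.56 ± 0.14 (adjusted p = 0.0131). ZNF71, described in endothelial cells as a gene induced by TNF, had 126, 106 and 126 counts in DMSO and 171, 164 and 166 at 1 μM, a log2 fold change of 0.46 ± 0.14 (adjusted p = 0.0294). In both genes the 1 μM samples lay above all DMSO samples. ZNF468 overlaps ZNF28 on the same strand, and ZNF71 lost its call in 7 of the 14 alternative settings. ZNF468 lost it without DMSO sample 3 or 1 μM sample 3.

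**Figure D2:**
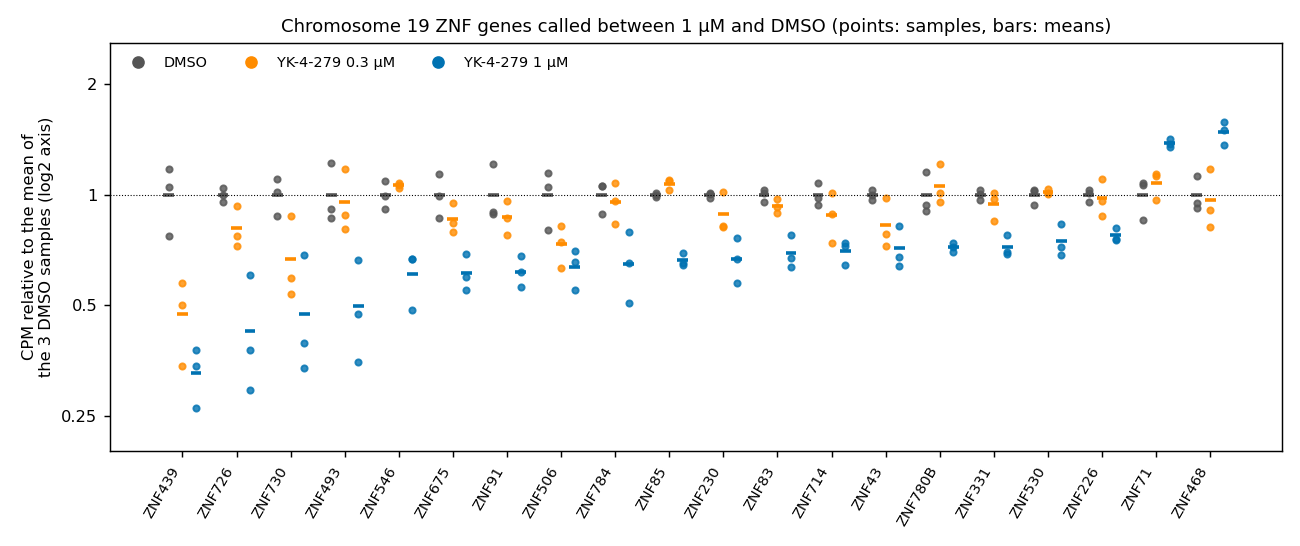
CPM of the 20 members called between 1 μM and DMSO, each divided by the mean of its 3 DMSO samples, on a log2 axis. Points are samples and bars are group means for DMSO, 0.3 μM and 1 μM. The 18 genes that fell stand to the left and the 2 that rose, ZNF71 and ZNF468, to the right.

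Single libraries moved these counts. With 1 sample left out, the members called lower at 1 μM numbered 9 without DMSO sample 3, 10 without 1 μM sample 2 and 11 without 1 μM sample 3, and 12 to 15 without each of the other samples. The members called higher numbered 0 without DMSO sample 3 or 1 μM sample 3. DESeq2 called 10 lower and 1 higher.

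The second comparison asked what the lower dose did. At 0.3 μM against DMSO, 0 of the 209 members tested were called by edgeR in either direction, as were 0.0% of all 15762 genes tested in each direction. DESeq2 called 0 members too. At an unadjusted p under 0.05 there were 7 members, 6 of them lower, which is 3.35% against a background of 3.77%. The median log2 fold change over members was -0.00 and over all genes 0.00. The groups did not overlap for 11 of 209 members downward and 10 upward, where the background was 4.56% downward and 3.82% upward. That no member passed the test does not show that none differed at this dose.

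The third comparison set the doses side by side. At 1 μM against 0.3 μM, 12 of 208 members fell and 2 rose, which is 5.77% and 0.96% against a background of 6.75% lower and 5.85% higher over the 15583 genes tested. The median log2 fold change was -0.03, against 0.00 for all genes. All samples of a group lay on one side for 29 of 208 members downward and 11 upward, where the background was 16.0% and 15.5%. This comparison shares its 1 μM samples with the first, so its values are given only side by side with it.

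Between the doses ZNF493 changed by -0.94 ± 0.29 on the log2 scale, ZNF726 by -0.92 ± 0.29, ZNF546 by -0.80 ± 0.17 and ZNF85 by -0.69 ± 0.20 (adjusted p = 0.042, 0.0433, 0.00651 and 0.0299). For ZNF546 the 0.3 μM samples, at 6.84 ± 0.113 CPM, lay near the DMSO level of 6.44 ± 0.573 CPM, and the 1 μM samples lay at 3.92 ± 0.69 CPM. ZNF546 was the 1 call of 14 that passed in each alternative setting. The other falls named here were ZNF780B (-0.55), ZNF91 (-0.49), ZNF675 (-0.48), ZNF530 (-0.44), ZNF83 (-0.42) and ZNF331 (-0.38), and ZNF460 (-0.64) and ZNF579 (-0.31) were called as well. The 2 rises were ZNF468 (0.62 ± 0.16, adjusted p = 0.0156) and ZNF587B (0.59 ± 0.14, adjusted p = 0.011). ZNF587B had 112, 111 and 101 counts at 0.3 μM and 182, 146 and 152 at 1 μM, with 137, 110 and 134 in DMSO, and it overlaps ZNF586 on the same strand. The count of falls dropped from 12 to 2 without 1 μM sample 2 or without 0.3 μM sample 2, to 3 without 1 μM sample 3 and to 7 without 1 μM sample 1.

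The falls at 1 μM were unevenly placed along the chromosome. Members were joined into stretches wherever neighbours lay within 500 kb, which gave 20 stretches. The stretch that holds ZNF91, from ZNF101 to ZNF254 (chromosome 19, bases 19668796 to 24129961 in GRCh38), contained 37 members, 35 of them with a KRAB box. It is singled out after its values were seen, so what follows is a description with no test. Of its 29 members tested at 1 μM, 24 had a log2 fold change below 0, the median was -0.22, and 9 were called lower and 0 higher (31.0% lower against 9.95% of all genes). The 175 other members tested had a median of 0.00, with 9 lower and 2 higher. The 9 calls were ZNF726, ZNF730, ZNF493, ZNF675, ZNF91, ZNF506, ZNF85, ZNF714 and ZNF43.

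Per sample, the median log2 level over the stretch relative to DMSO was -0.09, 0.10 and -0.05 in DMSO, -0.19, 0.02 and -0.16 at 0.3 μM and -0.32, -0.23 and -0.16 at 1 μM. The 1 μM samples lay below all DMSO samples, whereas the 0.3 μM samples overlapped with both other groups. Leaving out 1 sample at a time gave a median between -0.29 and -0.15 and 4 to 6 calls. The median was -0.15 with 5 calls without DMSO sample 2, and 4 calls were left without 1 μM sample 3. By DESeq2 the median at 1 μM was -0.36 with 6 calls, and without the filter on low counts -0.35 with 7. Both settings took in members below the filter (240 members in place of 204). These 2 medians therefore also cover genes of the stretch with few reads, such as ZNF208 (6, 3 and 3 counts in DMSO). They are not set against -0.22 over the same genes. At 0.3 μM the stretch had a median of -0.11 with 22 of 29 members below 0 and 0 called. This median ran from -0.05 without DMSO sample 2 to -0.23 without 0.3 μM sample 2. Between the doses the median was -0.13 with 5 called lower. Without 0.3 μM sample 2 it was -0.05 with 0 called, without 1 μM sample 1 or 2 there was 1 call, without 1 μM sample 3 there were 2, and DESeq2 gave 1.

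The other stretches with over 20 tested members lay closer to 0. The 32 tested members from ZNF175 to ZNF331 had a median of 0.12 with 2 lower and 1 higher. The 40 from ZNF264 to ZNF446 had a median of -0.01 with 1 lower and the 23 from ZNF565 to ZNF573 a median of -0.04 with 0 called. Just below that size, the 19 from ZNF575 to ZNF180 had a median of -0.10 with 2 lower. The 18 from ZNF653 to ZNF791 had a median of 0.01 with 1 lower. In the stretch of 3 genes that holds ZNF546 and ZNF780B, both of these fell, while ZNF780A was not called (log2 fold change 0.07, adjusted p = 0.815).

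**Figure D3:**
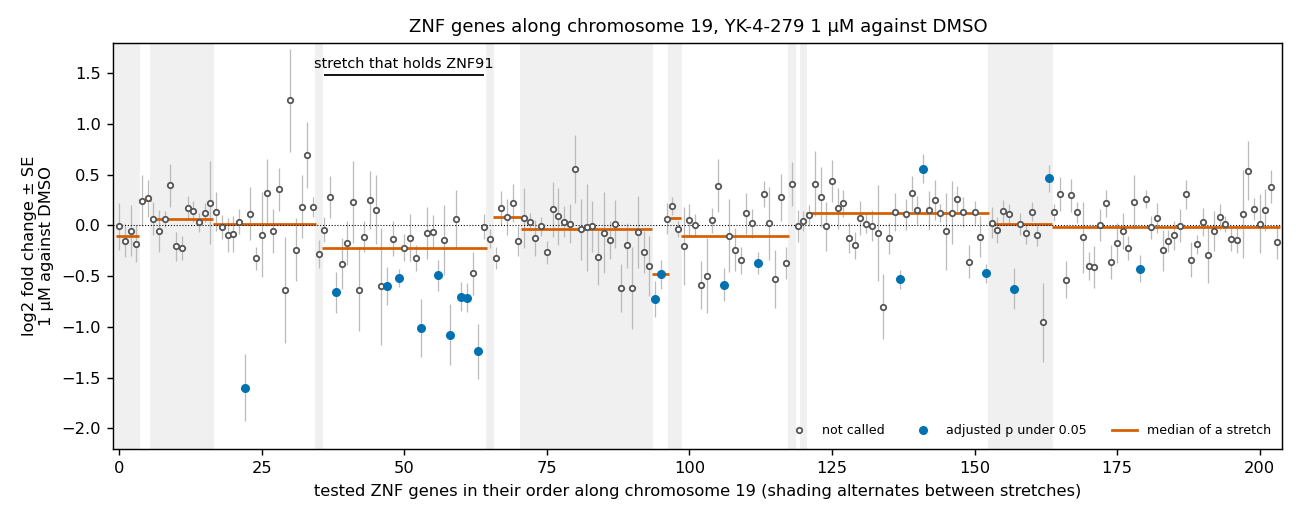
Log2 fold change (± SE) at 1 μM against DMSO of the 204 tested ZNF genes in their order along chromosome 19. Shading marks the stretches, orange lines their medians and filled points the calls at an adjusted p under 0.05. The stretch that holds ZNF91 has a median of -0.22 and 9 of the 18 falls.

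Genes of this stretch are close relatives. Over the longest transcript of each gene, the share of 30-base windows also found in a transcript of another gene had a median of 22.1% in the stretch and 12.3% over all members, and it was above 50% in 17 members. It was 21.5% for ZNF91, 24.3% for ZNF726 and 13.0% for ZNF675. How reads that fit several genes were counted is not given in the sources used here, so such counts are uncertain, and the part of shared reads in the falls was not tested. ZNF714, ZNF730, ZNF726 and ZNF83 also overlap another transcribed gene on the same strand.

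The kinship extends to the sequence upstream of the genes. RefSeq upstream sequences (GRCh38.p14) were matched by symbol for 217 of the 249 members. The search was for the ETS core CCGGAA on either strand (read from the other strand, TTCCGG), the sequence that ETS family factors contact. In the 250 bases before the start, 88 of 217 members (40.6%) held the core, against 14.8% of all 27305 upstream sequences of the table and 19.6% of those of protein-coding genes. In the last 50 bases, 62 members (28.6%) held it, against 5.72% of all upstream sequences and 7.99% of those of protein-coding genes. In the ZNF91 stretch 20 of 29 matched members (69.0%) did so. Elsewhere on the chromosome it was 42 of 188 (22.3%). The median GC content of the 250 bases was 59.6% in members and 62.4% in protein-coding genes.

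The last 100 bases before the start are shown for 6 genes of the stretch that fell and hold the core, since they show how alike these upstream sequences are. The core is in capitals, and each sequence runs 5′ to 3′ on the strand of its gene.
ZNF91: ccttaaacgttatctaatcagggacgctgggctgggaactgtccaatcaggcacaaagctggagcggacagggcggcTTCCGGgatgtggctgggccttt
ZNF726: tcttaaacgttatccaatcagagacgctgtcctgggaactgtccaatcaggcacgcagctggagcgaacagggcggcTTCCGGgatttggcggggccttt
ZNF730: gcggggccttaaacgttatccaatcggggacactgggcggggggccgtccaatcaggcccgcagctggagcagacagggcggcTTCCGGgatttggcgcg
ZNF493: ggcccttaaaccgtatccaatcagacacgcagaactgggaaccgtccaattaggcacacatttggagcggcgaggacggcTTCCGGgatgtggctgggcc
ZNF85: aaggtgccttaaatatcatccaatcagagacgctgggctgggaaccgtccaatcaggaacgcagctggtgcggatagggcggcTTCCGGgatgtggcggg
ZNF43: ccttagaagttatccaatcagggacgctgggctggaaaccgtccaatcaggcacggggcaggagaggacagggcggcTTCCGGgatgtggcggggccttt

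These lie on the minus strand at chr19:23395472-23395571 (ZNF91) and chr19:21836183-21836282 (ZNF43), and on the plus strand at chr19:23914786-23914885 (ZNF726), chr19:23116925-23117024 (ZNF730), chr19:21397033-21397132 (ZNF493) and chr19:20923151-20923250 (ZNF85). The core began 17 to 23 bases before the RefSeq start in all 6. For ZNF730 and ZNF43 that start lies inside the gene span of the deposited table. Which start KHM-5M cells use was not tested. Over the 60 bases that end with it, the other 5 sequences matched ZNF91 at 49 to 55 positions, which is 81.7% to 91.7%. The 12-base run GGCGGCTTCCGG (or CCGGAAGCCGCC on the other strand) was chosen after these sequences were seen. Within the 300-base sequences it was found in 35 of all 27305, 0 of 188 members elsewhere and 11 of the 29 matched genes of the stretch. These genes share their descent, so they are not independent examples of the core. Of the 17 tested genes of the stretch with the core in the last 50 bases, 11 were not called. Among them were ZNF254 (log2 fold change at 1 μM -0.01, core at 17 bases before the start), ZNF100 (-0.07, at 16 bases), ZNF430 (-0.13, at 22 bases) and ZNF737 (0.25, at 22 bases).

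For contrast, 2 relatives in the stretch and the called gene with the larger rise had no core in this window.
ZNF675: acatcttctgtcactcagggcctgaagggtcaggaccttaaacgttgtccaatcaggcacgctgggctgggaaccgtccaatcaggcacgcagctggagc
ZNF93: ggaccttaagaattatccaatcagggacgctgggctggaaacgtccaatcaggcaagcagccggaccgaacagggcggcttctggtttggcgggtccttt
ZNF468: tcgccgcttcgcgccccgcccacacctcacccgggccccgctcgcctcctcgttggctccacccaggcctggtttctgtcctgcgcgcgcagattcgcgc

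ZNF675 (minus strand, chr19:23687213-23687312) fell, and its core begins 13 bases after the annotated start. ZNF93 (plus strand, chr19:19900846-19900945), known for silencing LINE-1 elements, has no core in the 300 bases and its log2 fold change at 1 μM was -0.17 ± 0.22 (adjusted p = 0.629). ZNF468 (minus strand, chr19:52857620-52857719) rose, and ZNF439, which had the largest fall, likewise has no core in the 300 bases.

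Members with the core in the 250 bases had a median log2 fold change of -0.10 at 1 μM over 76 tested genes, with 11 lower (14.5%) and 0 higher. Members without it had a median of 0.01 over 110 genes, with 6 lower (5.45%) and 2 higher. The background over all genes tested was 9.95% lower and 7.67% higher. At 0.3 μM the medians were -0.01 and 0.03, and between the doses -0.08 and -0.02. These splits stop at the annotated start. With the 50 bases after it taken in, 122 of 217 members (56.2%) held the core. That share was 17.6% over all sequences and 23.05% over protein-coding genes. Some genes counted here as without the core, such as ZNF675, thus hold it just after the start. The stretch and the core go together in these genes, so they were also set apart. Within the ZNF91 stretch, 17 tested genes with the core in the last 50 bases had a median of -0.22 with 6 lower, and 9 without it a median of -0.12 with 2 lower. Elsewhere, 33 genes with the core there had a median of -0.06 with 3 lower, and 127 without it 0.01 with 6 lower and 2 higher. These are descriptions over related genes, and whether any factor binds there was not tested.

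**Figure D4:**
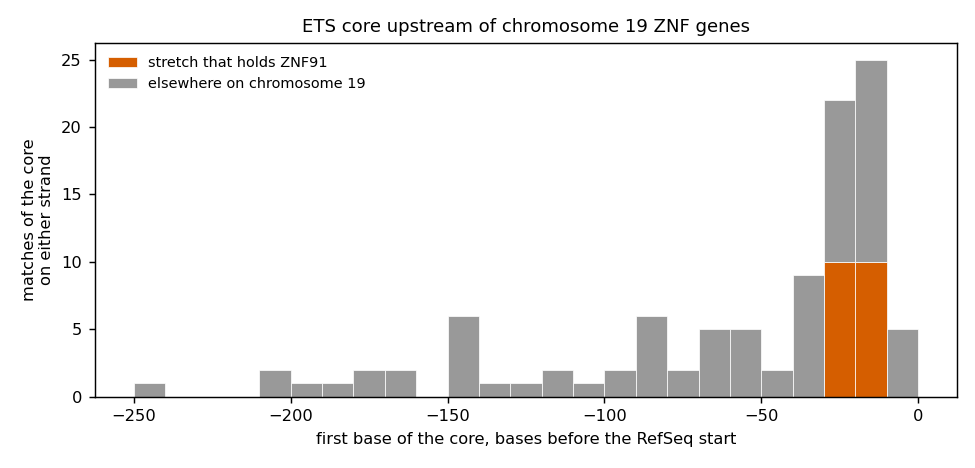
Number of matches of the core (either strand) upstream of the 217 matched members by the distance of its first base from the RefSeq start, in bins of 10 bases. Orange marks the stretch that holds ZNF91 and grey the other members. Of 103 matches, 47 began 11 to 30 bases before the start.

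Most of the members listed for a known role did not pass the test. ZNF274, which recruits SETDB1 to the ZNF gene clusters themselves, had 473, 487 and 439 counts in DMSO, 499, 488 and 436 at 0.3 μM and 497, 472 and 464 at 1 μM. Its log2 fold change at 1 μM was 0.02 ± 0.08 (adjusted p = 0.92), so that the 3 groups overlapped closely. ZNF224, a repressor of the aldolase A gene, had -0.34 ± 0.13 (adjusted p = 0.0839), ZNF808, which acts in pancreas development, -0.13 ± 0.15, and ZNF175 0.10 ± 0.10. ZNF350 (ZBRK1), a partner of BRCA1, had 40, 63 and 47 counts in DMSO and 70, 70 and 66 at 1 μM, a log2 fold change of 0.44 ± 0.21 (adjusted p = 0.161). ZNF420 (APAK), a regulator of p53 activity, had -0.01 ± 0.25, ZNF558 -0.05 ± 0.21 and ZNF649 0.28 ± 0.29. ZNF568 had 7 to 24 counts per sample over all groups, so its log2 fold change of -0.02 ± 0.43 is loosely set. Of the 15 genes listed for a known role, 4 fell at 1 μM (ZNF91, ZNF331, ZNF43 and ZNF85) and 0 rose, where the background was 9.95% lower and 7.67% higher. The list was written with earlier results known.

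KRAB and non-KRAB members were set side by side. Of 173 tested members with a KRAB box 15 fell and 2 rose at 1 μM, with a median log2 fold change of -0.05. Of 31 without one, 3 fell (ZNF784, ZNF83 and ZNF714) and 0 rose, with a median of 0.04. Both shares of falls (8.67% and 9.68%) lie near the background of 9.95%.

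ZNF-numbered genes of other chromosomes had a median log2 fold change of -0.01 at 1 μM over 230 tested genes, with 26 lower (11.3%) and 8 higher (3.48%). The 734 other protein-coding genes of chromosome 19 had a median of -0.02, with 59 lower (8.04%) and 40 higher (5.45%). No difference between these lists and the members was tested.

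The silencing machinery that KRAB proteins recruit was followed in a list of 42 genes, of which 41 were tested. At 1 μM 10 fell (24.4%) and 2 rose (4.88%), with a median log2 fold change of -0.11, where the background over all genes tested was 9.95% lower and 7.67% higher. At 0.3 μM 0 were called, and between the doses 7 fell (17.1%) and 3 rose (7.32%), against 6.75% and 5.85%. TRIM28, the KRAB partner itself, stood at 536 CPM in DMSO and 544 CPM at 1 μM, with a log2 fold change of 0.01 ± 0.09 (adjusted p = 0.935). SETDB1 had -0.23 ± 0.08 (adjusted p = 0.0603). The largest fall in the list was in ATRX, a chromatin remodeller, with -0.82 ± 0.15 (adjusted p = 0.00191), from 143 to 81.4 CPM. The DNA methyltransferase DNMT3B fell by 0.53 on the log2 scale, the H3K9 methyltransferase SUV39H1 by 0.50 and the HP1 protein gene CBX5 by 0.39. The rises were H3F3B (0.24), a gene for histone H3.3, and GATAD2A (0.21), a NuRD subunit.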

How the data were processed

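RNA-seq of KHM-5M cells (DMSO, 0.3 μM and 1 μM YK-4-279, 24 h, 3 samples each) was analysed from the table the authors deposited. Its counts are whole numbers of reads per gene, not normalized. The authors also deposited FPKM values, in which counts are divided by gene length and library size, and their own DESeq2 fold changes and p-values, which were not used. The study describes alignment to GRCh38 with HISAT2 and counting with HTseq, whereas the submitters' processing notes name HISAT2 2.0.5, featureCounts 1.5.0-p3 and DESeq2 1.20.0. Strand and multi-mapping settings are not given in the sources used here, and the labels and the study name different library kits and replicate numbers.

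From the counts, genes were kept by filterByExpr (minimum count 10), scaled by TMM and tested per pair of groups with glmQLFit and glmQLFTest in edgeR 4.0.16 (R 4.3.3), with Benjamini-Hochberg adjustment over all genes tested at 0.05. DESeq2 1.42.0 was an alternative. Per-sample levels are log2(CPM + 0.5). Depth was 16903251 to 18238884 counts per sample. Steps were tested on simulated data. Tables were made in Python 3.11.15 with pandas 2.3.3.

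Named members were the 10 largest falls and 5 largest rises called per comparison, averaging 1 CPM or more and with groups that did not overlap, the 5 with the highest FPKM in DMSO, 15 with known roles and those nearest the fold cutoff. Other members named were chosen after their values were seen. The members and lists were chosen with earlier results of these data known. The KRAB box was called where at least 17 of 37 residues matched a consensus (lowest called 20, highest not called 15), and fingers by the C2H2 spacing. Coordinates of all 249 members overlapped those of the GRCh38 annotation.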

Additional observations from a re-analysis of the deposited data

How the results depend on the processing

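The median log2 fold change of the members tested stayed between -0.05 and 0.04 in every comparison and setting tried. The counts of calls moved. At 1 μM against DMSO, with 18 lower and 2 higher by edgeR, DESeq2 gave 10 and 1, no filter on low counts 16 and 4, removal of the trend with GC content 23 and 4 (chosen after seeing the data) and the unadjusted p 32 and 9. The 10 members past 1.5-fold numbered 16 by unadjusted p and 4 at a 2-fold cutoff. At 0.3 μM the unadjusted p gave 6 lower and 1 higher in place of 0. Between the doses, with 12 lower and 2 higher, DESeq2 gave 6 lower and the unadjusted p 26 lower and 5 higher. RLE size factors, library totals, all 9 samples in a single fit and removal of the length trend left each count within 1.5 times. The cause was not tested.

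Leaving out each sample in turn, which also leaves a smaller group, gave 9 to 15 lower, 0 to 3 higher, 6 to 9 past 1.5-fold and a median from -0.0401 to -0.00089 at 1 μM. At 0.3 μM it gave 0 calls in either direction and a median from -0.00873 to 0.0443. Between the doses it gave 2 to 10 lower, 1 to 2 higher and a median from -0.0503 to -0.00547.

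With the replicate number as a block, 11 members were lower and 1 higher at 1 μM, 0 at 0.3 μM, and 12 lower and 2 higher between the doses. Correlations of deviations ran from -0.09 to 0.157 between same-numbered samples and from -0.116 to 0.114 between differently numbered ones. Between DMSO and 0.3 μM the same-numbered values were 0.157, 0.114 and 0.0421. Deviations within a group of 3 depend on one another, so these values cannot decide whether the numbers pair the samples. With neighbours joined only within 250 kb, the stretch that holds ZNF91 covered fewer genes. It then ran from ZNF737 to ZNF254, with 21 tested members, a median of -0.32 at 1 μM and 8 lower. The 8 tested members from ZNF101 to ZNF486 split off, with a median of -0.14 and 1 lower. For the ZNF91 stretch joined within 500 kb, the 9 calls at 1 μM numbered 6 under the block. They numbered 6 by DESeq2 (median -0.36) and 7 with no filter on low counts (median -0.35). The medians by DESeq2 and with no filter also cover genes with few reads that the main fit left out. The median tested member stood at 5.40 CPM, and what change could be detected at that level was not tested.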

Other observations

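Zinc finger genes of chromosome 19 that carry other names (ZFP, ZSCAN, ZBTB, ZKSCAN and ZIM with a number, ZIK1 and PEG3) numbered 19, of which 9 were tested at 1 μM against DMSO. In these 9 genes 2 rose and 0 fell by edgeR's quasi-likelihood test, with a median log2 fold change of 0.15, where the background over all genes tested was 7.67% higher and 9.95% lower. The rises were ZBTB7A (0.33 ± 0.08, adjusted p = 0.0119), a POZ-domain repressor, and ZBTB45 (0.44 ± 0.14, adjusted p = 0.0436). ZFP36, which the name rule also takes in, encodes an RNA-binding protein of another finger class and had 0.15 ± 0.10 (adjusted p = 0.351). The median of the 9 is the value of ZFP36 itself, and 4 of the 9 lay below 0. At 0.3 μM none of the 9 was called by edgeR, with 1 at an unadjusted p under 0.05.

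Across the 204 tested ZNF members, which share their libraries and much of their sequence, the log2 fold change at 1 μM had a Spearman rho of -0.18 with gene length and 0.20 with transcript GC content, and -0.08 with the number of fingers. Over all genes tested the first 2 values were 0.06 and 0.00. At 0.3 μM rho with GC content was 0.34 over 209 members and 0.20 over all genes. These are descriptions across genes, which are not independent replicates.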
